A study of Mus musculus with 4 samples.

Results

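The respiratory chain and ATP synthase are encoded by a large set of nuclear genes, of which 57 were represented here, among 6137 genes named on the arrays, by 65 of the 13057 non-control probe sets. Members were all probe sets whose single gene symbol in the platform annotation begins with Nduf (complex I), Uqcr (complex III), Cox4 to Cox8 (complex IV) or Atp5 (complex V), or is Sdha, Sdhb, Sdhc or Sdhd (complex II). The rule used names only and no measured value, but it was set with earlier results of these arrays known. It took in 2 complex I assembly factors, Ndufaf1 and Ndufaf4, and the supercomplex factor Cox7a2l, which are not subunits. The cells were an NIH3T3 line, immortalised mouse fibroblasts, which carries wild-type PKR under a promoter that tetracycline represses, and this construct was present in every culture. PKR is a kinase that is activated by double-stranded RNA and phosphorylates a translation initiation factor. In the withdrawn cultures tetracycline was removed for 5 h to induce PKR, while the tetracycline cultures were kept in 1 µg/ml tetracycline and 5% fetal calf serum. The labels do not give the serum of the withdrawn cultures or whether the line is 1 clone, and PKR induction and the removal of tetracycline cannot be told apart.

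In oxidative phosphorylation, complexes I and II pass electrons to ubiquinone, complex III passes them on to cytochrome c, and complex IV hands them to oxygen. Complexes I, III and IV pump protons out of the mitochondrial matrix, and complex V, the ATP synthase, lets them flow back to make ATP. A few subunits are encoded by mitochondrial DNA and most by nuclear genes such as those measured here.

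Total RNA was hybridised to 4 arrays of 2 types, with 1 withdrawn and 1 tetracycline array of each type. The types carry different probe sets, 6523 on the first and 6534 on the type marked MB, so no condition has a replicate and no p-value was computed. The values are deposited linear intensities, and the number of arrays limits their precision. A probe set was called measured when it exceeded on both arrays a floor set at the 25th percentile of the type's intensities, 130 for the first type and 80.0 for the MB type. A stricter control floor, the 95th percentile of bacterial and yeast control probe sets, was 281.5 and 340.4. Log2 changes set the withdrawn intensity over that with tetracycline. The spread given beside some of them is a robust SD over the 200 measured probe sets closest in intensity, which is no replicate error. It is taken about the median of those probe sets, whereas each change is set against it from 0. At high intensity that median was below 0, which favours calls of lower there. The 3' to 5' ratio of the actin and Gapdh controls lay between 0.71 and 1.05 on the 4 arrays. The only Eif2ak2 probe set, on the first type, read 663.6 withdrawn and 643.3 with tetracycline. Which species the transgene came from is not stated, and this reading is no check of induction. In RNA from whole cultures, fewer cells with a transcript and less of it per cell cannot be told apart. Fibroblast markers were measured in 5 of 6 probe sets on the first type and 12 of 12 on the MB type. The probe set that was not measured was that of Col3a1, a fibrillar collagen, which read 18.4 withdrawn and 26.9 with tetracycline on the first type but 1032.8 and 1184.3 on the MB type. Markers of leukocytes, epithelium and endothelium exceeded the control floor on both arrays in 4 of 19 probe sets. On the first type these were 2 of 3 leukocyte probe sets and 1 of 4 epithelial ones. The leukocyte ones were Cd3e (753.3 withdrawn, 638.9 with tetracycline) and Ptprc (363.9 and 710.1). On the MB type it was 1 of 3 leukocyte ones, Cd14 (3425.7 and 3222.2). Of all non-control probe sets 4402 of 6523 on the first type and 4360 of 6534 on the MB type were measured. The control floor was exceeded by 3555 and 2738.

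Of the 65 member probe sets, the first type carried 51 and the MB type 14. Measured were 44 and 13 of them, and 42 and 11 exceeded the control floor. Among all non-control probe sets 4402 of 6523 and 4360 of 6534 were measured, and 3555 and 2738 exceeded the control floor. Of the 8 member probe sets that were not measured, 5 exceeded the floor on 1 array and 3 on neither. Of the 57 genes, 49 had 1 probe set and 8 had more, 3 of these on both array types. A further 3 probe sets that list a member gene beside another gene were left out, as the rule asks for a single symbol.

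Most measured members read slightly lower after withdrawal, none by 2-fold. The first type had 34 of 44 measured members lower, or 77.3%, against 51.1% of all 4402 measured probe sets. Their median log2 change was -0.19, against -0.012 for all, and single members ranged from -0.82 to 0.70. On the MB type 8 of 13 were lower, or 61.5%, against 47.5% of all 4360, with a median of -0.16 against 0.025 and a range from -0.68 to 0.084. Among subunits alone, without Ndufaf1 and Cox7a2l, 76.7% of 43 were lower on the first type and 72.7% of 11 on the MB type. Above the control floor 33 of 42 members were lower on the first type (51.2% of all) and 7 of 11 members on the MB type (48.8%). No measured member reached 2-fold in either direction, where 4.02% of all probe sets of the first type were 2-fold lower and 4.36% higher, and 6.65% and 8.46% of those of the MB type. At 1.5-fold 3 members were lower and 1 was higher on the first type (background 10.7% and 12.4%), and 1 was lower and none higher on the MB type (12.9% and 17.6%). The shares past these limits were thus no higher among the members than among all probe sets. Those of all probe sets cover every intensity, and dim ones spread more widely. On the first type the quartiles of change were -0.52 and 0.54 below an intensity of 300, where 2 measured members lay. They were -0.23 and 0.16 between 3000 and 10000, where 17 lay. Changes larger than the spread at their level were found for 18 lower and 2 higher members of 44 on the first type, against 16.3% lower and 16.1% higher among all probe sets. On the MB type 4 of 13 were lower by more than the spread, against 15.1% of all, and none was higher by more than it (17.9% of all). These counts set each change from 0, and the shares of all probe sets cover every intensity. Set from the median of their nearest probe sets, the changes of Atp5a1, Atp5g1, Cox6a1 and Ndufb2 on the first type lay within the spread. So did that of Cox7c on the MB type.

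**Figure D1:**
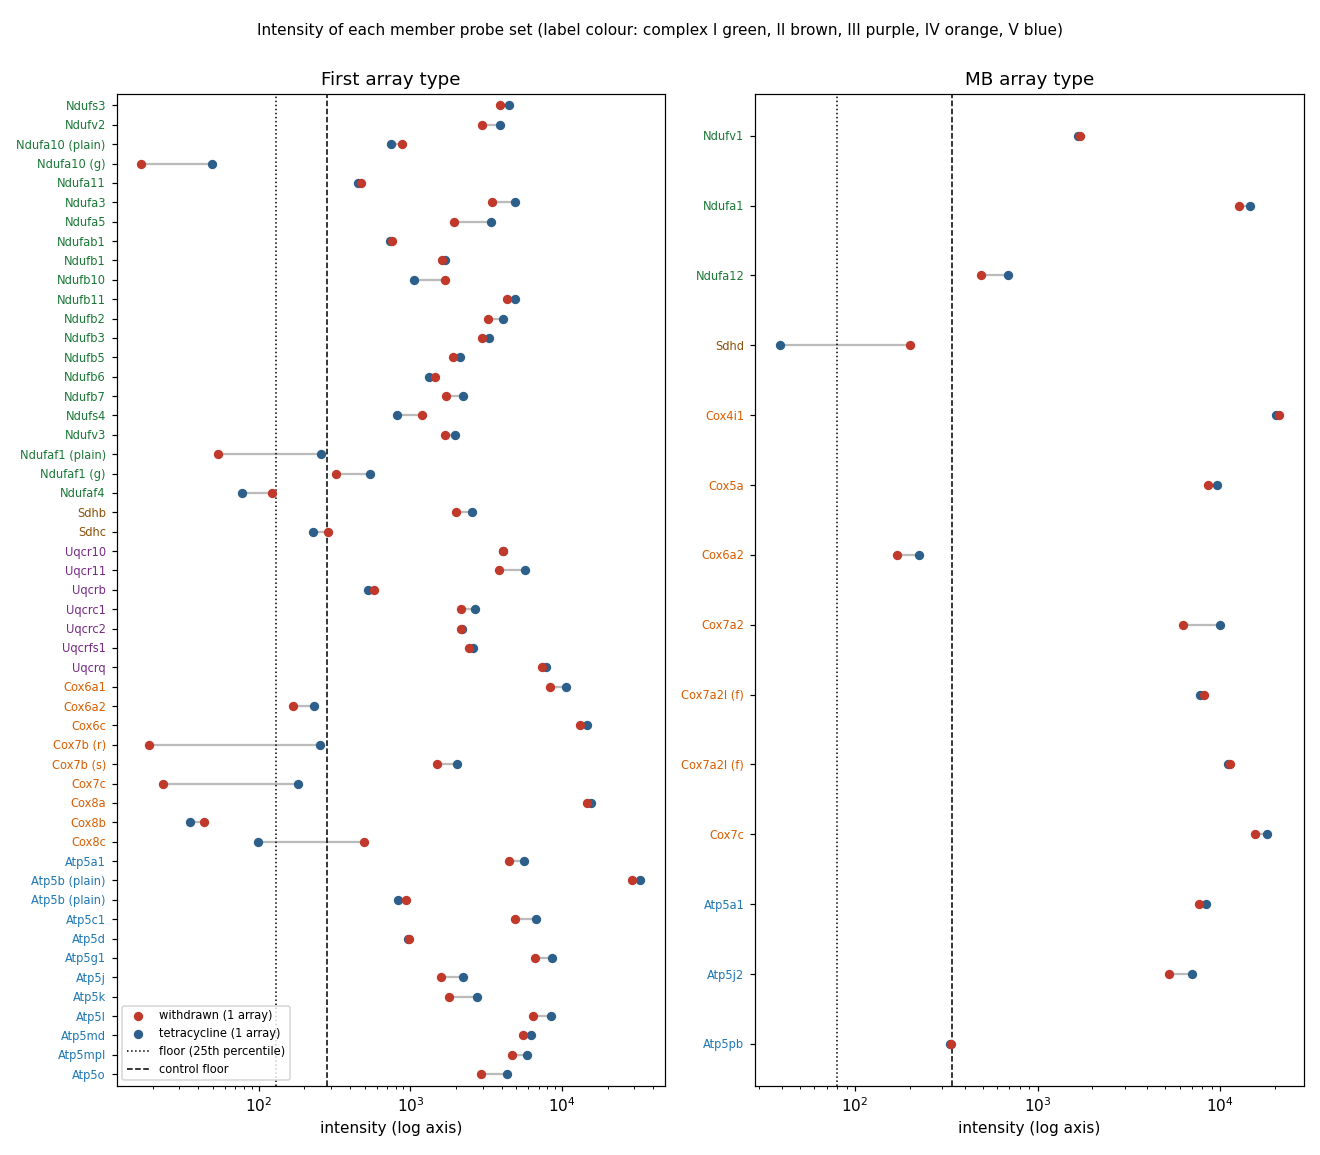
Intensity (log axis) of every member probe set on the withdrawn array (red) and the tetracycline array (blue) of each type, grouped by complex. Dotted and dashed lines mark the floor and the control floor, and letters after a repeated gene give the kind of probe set. On the first type the red point lies left of the blue one for 34 of the 44 measured members.

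Promoter sequence is shown for 2 members that read lower and 2 that read higher, chosen after their values were seen to show which of the letters below stand in members that read either way. The 2 higher ones had the largest upward changes, but the 2 lower ones did not have the largest downward ones. Each window runs from 250 bases before to 50 bases after the annotated gene start, from RefSeq, build GRCm38.p6, 5′ to 3′ on the gene's strand. Such a window was given for 47 of the 57 genes, and not for Atp5a1, Atp5mpl, Cox4i1, Cox6a2, Cox6c, Cox8c, Sdhc, Uqcrb, Uqcrc2 and Uqcrq. Atp5k encodes subunit e of ATP synthase, at chr5:108434350-108434649 on the minus strand. Uqcr11 encodes a small subunit of complex III, at chr10:80406772-80407071 on the minus strand. Ndufb10 and Ndufs4 encode accessory subunits of complex I, at chr17:24724374-24724673 and chr13:114388045-114388344, both on the minus strand. Capitals mark matches to 4 motifs searched on both strands. They are core letters of the sites of NRF1 (GCGCATG), GABP (CCGGAAG) and YY1 (AAGATGG), factors known to regulate respiratory chain genes, and the GC box (GGGCGG). Matches to different motifs do not overlap in these windows.
Atp5k: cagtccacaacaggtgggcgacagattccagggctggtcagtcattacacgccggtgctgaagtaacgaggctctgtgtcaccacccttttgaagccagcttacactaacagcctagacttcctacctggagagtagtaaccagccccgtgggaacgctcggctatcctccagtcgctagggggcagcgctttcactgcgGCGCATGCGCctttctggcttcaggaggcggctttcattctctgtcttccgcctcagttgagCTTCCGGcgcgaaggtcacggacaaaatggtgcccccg
Uqcr11: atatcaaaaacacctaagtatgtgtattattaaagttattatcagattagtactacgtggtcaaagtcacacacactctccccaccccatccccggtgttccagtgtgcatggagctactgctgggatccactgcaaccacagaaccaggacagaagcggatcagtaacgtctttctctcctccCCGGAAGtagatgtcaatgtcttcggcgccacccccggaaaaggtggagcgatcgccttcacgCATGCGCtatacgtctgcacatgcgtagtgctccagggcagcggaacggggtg
Ndufb10: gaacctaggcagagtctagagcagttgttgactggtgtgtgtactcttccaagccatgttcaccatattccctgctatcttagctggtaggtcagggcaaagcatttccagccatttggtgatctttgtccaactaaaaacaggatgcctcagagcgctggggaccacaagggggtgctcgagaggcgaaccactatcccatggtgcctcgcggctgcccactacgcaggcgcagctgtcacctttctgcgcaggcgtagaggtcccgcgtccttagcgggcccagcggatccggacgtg
Ndufs4: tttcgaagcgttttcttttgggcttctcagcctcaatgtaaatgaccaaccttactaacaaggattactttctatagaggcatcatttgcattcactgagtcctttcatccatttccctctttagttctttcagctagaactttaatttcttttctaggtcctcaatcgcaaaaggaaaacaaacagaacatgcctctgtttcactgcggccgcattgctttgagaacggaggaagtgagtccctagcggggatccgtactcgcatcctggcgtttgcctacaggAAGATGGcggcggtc

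The Atp5k window holds the NRF1 letters on both strands, at positions 201 to 207 and 204 to 210, and the GABP letters, on the opposite strand, at positions 263 to 269, counted from 1 at the 5′ end. Uqcr11 holds the GABP letters at positions 185 to 191 and the NRF1 letters, on the opposite strand, at positions 248 to 254. Ndufs4 holds the YY1 letters at positions 286 to 292. In Ndufb10 none of the 4 motifs was matched exactly. These 4 windows do not stand for all members. Ndufa5, with the largest downward change (-0.82), held the GC box alone. Ndufb6, which read higher (0.14), held both the NRF1 and the GABP letters, and Ndufa11, also higher (0.048), held the NRF1 letters. Among the 47 member genes 13 held the GABP letters (27.7%), against 9.93% of 27025 genes with a window. The NRF1 letters were in 9 (19.1%, against 4.41%), the YY1 letters in 6 (12.8%, against 7.28%) and the GC box in 22 (46.8%, against 38.2%). The 27025 genes were not limited to those on the arrays or to expressed ones. The higher shares are thus not shown to be particular to the respiratory chain. Of the first type's measured members 11 of 12 with the GABP letters were lower, with a median log2 change of -0.36, and 17 of 24 members with a window but without them, with a median of -0.17. These ranges overlap, from -0.76 to 0.14 with the letters and from -0.82 to 0.70 without. With the NRF1 letters 6 of 8 were lower (median -0.35), and without them 22 of 28 (-0.18). With the YY1 letters 2 of 3 were lower (-0.48), and without them 26 of 33 (-0.20). With the GC box 11 of 15 were lower (-0.22), and without it 17 of 21 (-0.17). None of the MB type's 10 measured probe sets with a window held the GABP or NRF1 letters, so these 2 contrasts rest on 1 pair of arrays. The motif cores were chosen after the values were seen, and no difference was tested. A match is a description of these letters and shows no binding.

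Complex V read lower in 10 of 12 measured probe sets of the first type, with a median of -0.34, and in 2 of 3 on the MB type, with a median of -0.13. In the catalytic F1 part, Atp5c1, the gamma subunit of the rotating shaft, read 4893.7 withdrawn and 6751.9 with tetracycline, a log2 change of -0.46 with a spread of 0.28. Atp5a1, the alpha subunit, read 4496.8 and 5600.6 (-0.32), and on the MB type 7657.3 withdrawn and 8374.7 with tetracycline (-0.13). The alpha subunit was thus lower after withdrawal on both types, by more than its spread (0.28) on the first type and by less than it (also 0.28) on the MB type. Atp5d, the delta subunit of the shaft, was nearly equal, at 973.9 withdrawn and 965.9 with tetracycline (0.012, or -0.022 with quantile scaling). Atp5b, the catalytic beta subunit, had 2 probe sets that went opposite ways. One read 28902.3 withdrawn and 32663.6 with tetracycline (-0.18), and the other 939.2 and 834.0 (0.17), each within its spread of 0.19 and 0.44.

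The first type's median was -0.52 for the peripheral stalk (2 probe sets), -0.37 for the membrane subunits (4) and -0.18 for F1 (5). The MB type had 1 probe set of each, where the stalk (0.025) lay above F1 (-0.13), and no difference between them was tested. Atp5k, whose promoter is shown above, read 1807.5 withdrawn and 2754.0 with tetracycline, or 1.52-fold lower (-0.61, spread 0.35). Atp5o, the OSCP subunit that ties the peripheral stalk to F1, read 2928.1 withdrawn and 4327.2 with tetracycline (-0.56, spread 0.31). Both lay outside the spread at their level. Atp5j, coupling factor 6 of the peripheral stalk, read 1601.1 withdrawn and 2231.8 with tetracycline (-0.48). Atp5l, subunit g of the membrane part, read 6401.1 withdrawn and 8492.5 with tetracycline (-0.41). Atp5g1, 1 of the genes for the c subunit that forms the proton-driven ring, read 6661.8 withdrawn and 8518.6 with tetracycline (-0.35). All 3 exceeded their spreads, which were 0.34, 0.31 and 0.31. The small membrane proteins Atp5mpl (4658.5 withdrawn, 5867.3 with tetracycline, -0.33) and Atp5md (5500.1 and 6236.3, -0.18) were lower as well, Atp5md by less than its spread of 0.28. Atp5j2, subunit f, read 5279.5 withdrawn and 7046.1 with tetracycline on the MB type (-0.42, spread 0.30). Atp5pb, subunit b of the peripheral stalk, read 335.9 withdrawn and 330.2 with tetracycline on the MB type (0.025, spread 0.85), both below the control floor.

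Complex IV, cytochrome c oxidase, was lower in all 5 measured probe sets of the first type, with a median of -0.35, and in 4 of 7 on the MB type, with a median of -0.16. The 5 include Cox6a2, which lay below the control floor. For the 4 above it the first type's median was -0.26. With all 5 it was -0.26 with the level trend removed and -0.28 with quantile scaling. Without Cox7a2l, which is no subunit, 4 of 5 were lower on the MB type, with a median of -0.22. The median of the 7 was -0.067 with the level trend removed, -0.035 with quantile scaling and -0.062 for the 6 above the control floor. Cox7a2, the ubiquitous isoform of subunit 7a, had the largest difference among its measured probe sets. It read 6222.9 withdrawn and 9951.0 with tetracycline on the MB type, or 1.60-fold lower (-0.68, spread 0.27). Its relative Cox7a2l, which joins complexes III and IV into supercomplexes, had 2 probe sets on the same arrays that were both slightly higher. They read 8199.6 withdrawn against 7738.0 with tetracycline (0.084) and 11319.5 against 11075.4 (0.031). Cox7a2 and Cox7a2l therefore went opposite ways, and the differences of Cox7a2l lay within their spreads of 0.28 and 0.25.

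The remaining ubiquitous subunits of complex IV differed less. Cox6a1, the ubiquitous subunit 6a, read 8366.3 withdrawn and 10648.5 with tetracycline (-0.35, spread 0.27). Cox6c read 13062.6 withdrawn and 14661.4 with tetracycline (-0.17, spread 0.24), and Cox8a 14511.4 and 15468.9 (-0.092, spread 0.23). Cox6c and Cox8a thus lay within the spread, and Cox8a turned to 0.042 with quantile scaling and 0.032 with the level trend removed. Cox5a read 8578.3 withdrawn and 9557.1 with tetracycline on the MB type (-0.16, spread 0.28). Cox4i1, the ubiquitous subunit 4 that takes part in regulation of the enzyme by ATP, read 20888.8 withdrawn and 20194.9 with tetracycline (0.049, spread 0.20). Neither exceeded its spread. Cox7c read 15536.6 withdrawn and 18103.8 with tetracycline on the MB type (-0.22, spread 0.21). The Cox7c probe set of the first type read 23.5 withdrawn and 182.3 with tetracycline, below the control floor on both arrays. Cox7b read 1503.2 withdrawn and 2044.3 with tetracycline on one probe set (-0.44, spread 0.37) and 19.0 and 254.1 on a second, which was below the control floor on both arrays.

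None of the tissue isoforms of complex IV exceeded the control floor on both arrays. Cox6a2, the heart and skeletal muscle isoform of subunit 6a, read 169.4 withdrawn and 230.6 with tetracycline on the first type, and 169.7 and 224.5 on the MB type. Its log2 changes of -0.44 and -0.40 were close to each other, but all 4 values lay below the control floors and the spreads at this level were 0.84 and 1.52. Cox8b, the muscle isoform of subunit 8, read 43.4 withdrawn and 35.1 with tetracycline, below the floor on both arrays. Cox8c, the testis isoform, read 491.5 withdrawn and 99.0 with tetracycline. It was above the floor after withdrawal only, where it stood 3.79-fold above the main floor and 1.75-fold above the control floor. The main floor is a percentile of all intensities and no detection limit. Of the other members above it on 1 array only, Sdhd stood 2.52-fold above it after withdrawal. With tetracycline Ndufaf1, Cox7b and Cox7c stood 1.98-, 1.96- and 1.41-fold above it. Muscle markers were measured in 5 of 6 probe sets on the first type, of which 4 were lower (median -0.31), and in 7 of 8 on the MB type, of which 4 were lower (median -0.33). They exceeded the control floor in 2 and 6 probe sets. Their summed intensity was 2220.7 withdrawn and 2157.2 with tetracycline on the first type, and 10737.3 and 12119.9 on the MB type. On the first type Tnnt2 was the only higher one of the measured (572.2 and 248.8), its tetracycline value below the control floor. The part of the muscle markers in the isoform readings was not tested.

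**Figure D2:**
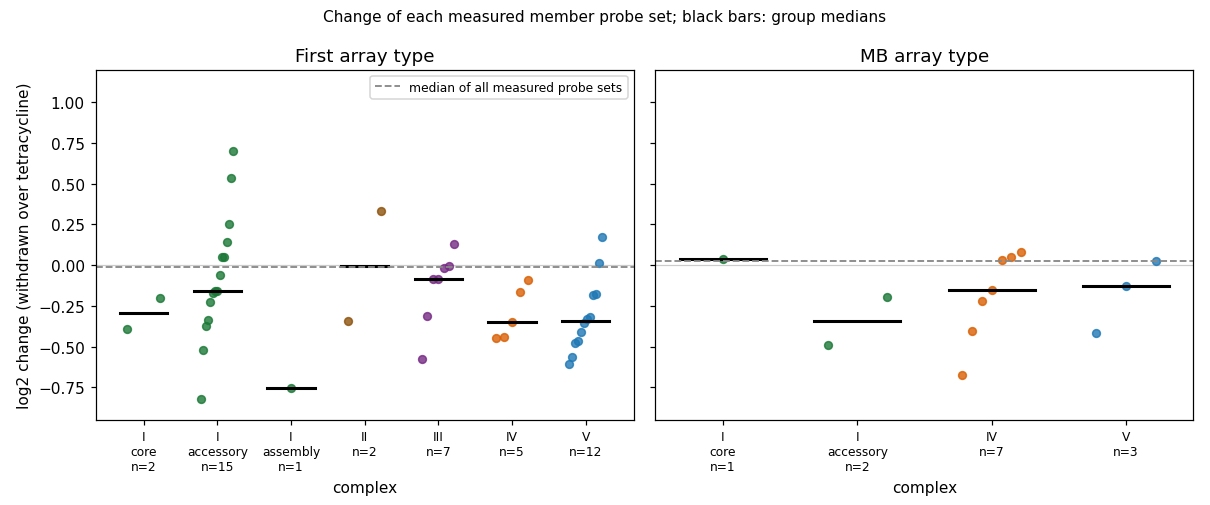
Log2 change of each measured member (points) by complex on the 2 array types, with group medians (black bars) and the median of all measured probe sets (dashed line). On the first type the medians of complexes IV and V lie at -0.35 and -0.34, and those of complexes II and III close to 0. The complex IV points there include Cox6a2, which lay below the control floor.

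Complex I, the NADH dehydrogenase, went both ways and held the extremes of the set. Its subunits read lower in 11 of 17 measured probe sets of the first type, with a median of -0.16, and in 2 of 3 on the MB type, with a median of -0.20. Ndufa5, an accessory subunit of the arm that reduces ubiquinone, read 1924.8 withdrawn and 3402.7 with tetracycline, or 1.77-fold lower (-0.82, spread 0.32), the largest downward change among the measured members. Ndufb10, an accessory subunit of the membrane arm, read 1703.8 withdrawn and 1050.1 with tetracycline, or 1.62-fold higher (0.70, spread 0.37), the largest upward one. Ndufs4, whose promoter is shown above, is an accessory subunit of the NADH-oxidising arm whose loss in people causes Leigh syndrome. It read 1185.5 withdrawn and 816.7 with tetracycline (0.54, spread 0.43). Ndufb10 and Ndufs4 were the only members higher by more than their spread.

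The NADH-oxidising arm of complex I was mixed. Ndufv3, an accessory subunit, read 1681.5 withdrawn and 1964.1 with tetracycline (-0.22, spread 0.38). Ndufv2, a core iron-sulphur subunit of that arm, read 2954.5 withdrawn and 3878.0 with tetracycline (-0.39, spread 0.31). Its neighbour Ndufv1, the core flavoprotein that oxidises NADH, read 1718.8 withdrawn and 1672.9 with tetracycline on the MB type (0.039, spread 0.37, or -0.024 with quantile scaling). Ndufa12, an accessory subunit, read 487.6 withdrawn and 685.4 with tetracycline on the MB type (-0.49, spread 0.47). Ndufv2 and Ndufa12 thus lay outside their spread and Ndufv1 within it. In the quinone-reducing arm both measured probe sets were lower, Ndufa5 as given above and the core subunit Ndufs3 at 3888.8 withdrawn and 4465.0 with tetracycline (-0.20, spread 0.28).

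The membrane arm of complex I had 7 of 12 probe sets lower on the first type, with a median of -0.11. Ndufa3 read 3434.0 withdrawn and 4921.5 with tetracycline (-0.52, spread 0.27). Ndufb7 read 1720.6 withdrawn and 2227.7 with tetracycline (-0.37, spread 0.35), and Ndufb2 3253.6 and 4108.0 (-0.34, spread 0.29). These 3 accessory subunits exceeded their spread downward. Ndufb1, Ndufb3, Ndufb5 and Ndufb11 were lower by less, with changes of -0.063, -0.16, -0.16 and -0.17. Ndufab1, the mitochondrial acyl carrier protein, read 759.7 withdrawn and 733.7 with tetracycline (0.050). Ndufa11 (0.048), Ndufb6 (0.14) and Ndufa10 (0.25) were higher within their spreads. A second Ndufa10 probe set was below the floor on both arrays. The MB type represented the membrane arm by Ndufa1, which read 12688.7 withdrawn and 14559.7 with tetracycline (-0.20, spread 0.25).

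Of the complex I assembly factors, which help build the enzyme but are not part of it, Ndufaf1 read 323.2 withdrawn and 545.5 with tetracycline (-0.76, spread 0.57). Its second probe set, from the same sequence, read 53.9 withdrawn and 257.3 with tetracycline, both below the control floor. That second probe set was below the main floor after withdrawal and so not measured, and its direction adds nothing to that of the first. Ndufaf4 read 123.0 withdrawn and 77.2 with tetracycline, below the floor on both arrays.

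Complex III, the cytochrome bc1 complex, was close to the arrays' own median. Of 7 measured probe sets 6 were lower, but their median was -0.084. Uqcr11, whose promoter is shown above, stood apart at 3825.9 withdrawn and 5711.6 with tetracycline, or 1.49-fold lower (-0.58, spread 0.28). Among the core proteins Uqcrc1 read 2163.3 withdrawn and 2682.7 with tetracycline (-0.31, spread 0.36), and Uqcrc2 2156.8 and 2183.3 (-0.018). Uqcrfs1, the Rieske iron-sulphur protein that takes electrons from ubiquinol, read 2421.5 withdrawn and 2568.1 with tetracycline (-0.085). Apart from Uqcr11, none of the 7 exceeded its spread. The small subunits Uqcrq (7399.3 withdrawn, 7841.4 with tetracycline, -0.084), Uqcr10 (4065.6 and 4076.1, -0.0037, or 0.016 with quantile scaling) and Uqcrb (578.4 and 529.4, 0.13) were nearly level.

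Complex II, succinate dehydrogenase, also belongs to the citric acid cycle, and had 3 probe sets. Sdhb, the iron-sulphur subunit, read 2010.2 withdrawn and 2550.9 with tetracycline (-0.344, spread 0.342). The membrane anchor Sdhc read 285.0 withdrawn and 226.7 with tetracycline (0.33, spread 0.91), the second value below the control floor. The other anchor, Sdhd, read 201.4 withdrawn and 38.9 with tetracycline on the MB type, both below the control floor. The median of the 2 measured probe sets, -0.0067, therefore averages a lower and a dim higher one.

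The lower readings lay among the brighter members. All 17 members of the first type with a geometric mean intensity between 3000 and 10000 were lower, with a median of -0.34, against 56.1% of all 465 probe sets in that band and a median of -0.058. Between 1000 and 3000, 12 of 14 members were lower (median -0.27), against 46.1% of 1297 probe sets (0.041). Above 10000 all 3 members were lower, with the same trend in the band as a whole, 81.6% of 141 probe sets. Between 300 and 1000 only 1 of 8 members was lower, against 51.4% of 1858. The members' shift was therefore seen between 1000 and 10000 and not below. Of the MB type's members 4 of 5 between 3000 and 10000 were lower (61.9% of 438), and 2 of 4 above 10000 (70.2% of 205). With the trend of change on level removed by loess, the median of the measured members was -0.19 for the first type and -0.082 for the MB type, so about the same on the first type and nearer to 0 on the MB type.

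**Figure D3:**
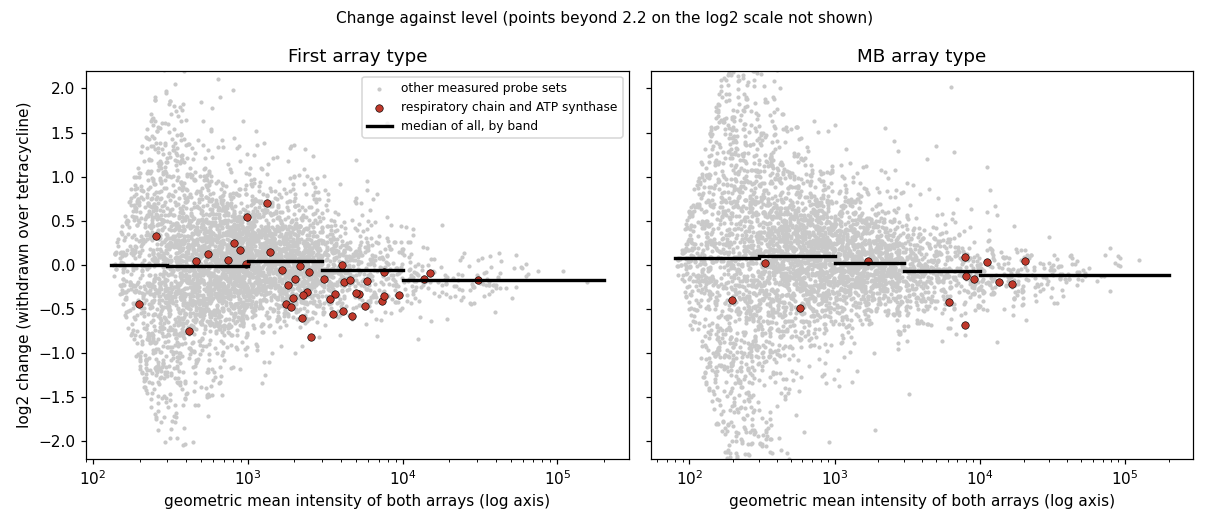
Log2 change against the geometric mean intensity of both arrays (log axis) for all measured probe sets (grey) and the members (red), with the median of all probe sets in each level band (black). On the first type all 17 members between 3000 and 10000 lie below 0, while the median of that band is -0.058.

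The kind of probe set also moved with the readings. In the Affymetrix naming scheme a plain _at probe set is meant to be specific to 1 transcript, _s_at probe sets can detect several similar transcripts, and _f_at probe sets hold probes shared within a sequence family. Many respiratory chain genes have processed pseudogenes or near-identical relatives, so signal may be shared with such copies. Of the first type's measured _s_at members 24 of 29 were lower, with a median of -0.20, against 49.2% of 2584 _s_at probe sets and a median of 0.010. Of the _f_at members 6 of 7 were lower (median -0.34), where 66.8% of 337 _f_at probe sets were lower too (-0.15). Of the plain probe sets only 3 of 7 were lower (median 0.048), against 50% of 1151. These 7 were the 2 of Atp5b and those of Ndufa10, Ndufa11, Ndufb10, Uqcrc1 and Uqcrfs1. The only measured _g_at member, that of Ndufaf1, was lower. Of the 34 lower readings on the first type, 24 thus came from _s_at, 6 from _f_at, 3 from plain and 1 from _g_at probe sets. The MB type had 6 of 9 _f_at members lower (56.7% of 1090 in all) and 2 of 4 _s_at members (44.8% of 2512). The part of probe set kind in the result was not tested.

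**Figure D4:**
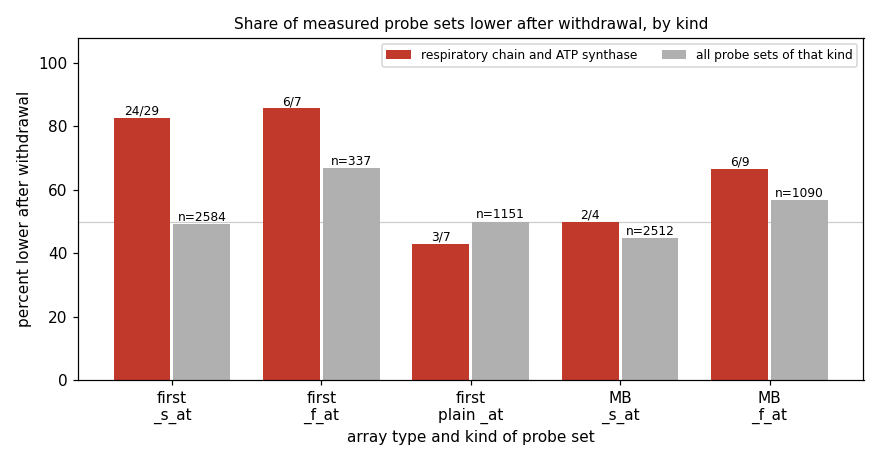
Percent of measured probe sets that were lower after withdrawal, for the members (red, with counts) and for all probe sets of the same kind (grey, with n), by array type and kind. The first type's _s_at members stand at 24 of 29, against 49.2% of all _s_at probe sets, and its plain members at 3 of 7, against 50%.

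Other genes of energy metabolism were read in the same way. Of the citric acid cycle and pyruvate entry list, which also holds the cytosolic enzymes Idh1, Mdh1 and Aco1, 10 of 12 measured probe sets were lower on the first type, with a median of -0.20, and 1 of 2 on the MB type. The largest difference was that of Idh1, an NADP-dependent isocitrate dehydrogenase, which read 395.6 withdrawn and 799.2 with tetracycline (-1.01). Cs, citrate synthase, read 3085.0 withdrawn and 3635.9 with tetracycline (-0.24). Both were lower, Idh1 just past 2-fold. Suclg2 had the largest upward change of the first type (0.31), while a brighter probe set of the same gene went the other way (-0.17). Of the 2 probe sets of the MB type, that of Mdh2 was higher (0.52) and that of Aco1 lower (-0.31). A brighter Mdh2 probe set on the first type read 5937.9 withdrawn and 6675.0 with tetracycline (-0.17). Cytochrome c, the carriers and the pores went both ways, with 4 of 9 lower on the first type (median 0.076) and 4 of 5 on the MB type (median -0.28). The 2 probe sets of Cycs, cytochrome c itself, went opposite ways on the MB type, with changes of 0.12 and -0.45. Slc25a20, the carnitine carrier, had the largest upward change of this list on the first type (0.75), with a second probe set at 0.12. Slc25a5, an ADP/ATP carrier that exchanges the product of ATP synthase, was lower on 2 probe sets of the first type (-0.23 and -0.15) and on 1 of the MB type (-0.25).

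Assembly, haem and quinone factors outside the name rule were lower in 10 of 14 measured probe sets on the first type (median -0.081) and 2 of 3 on the MB type. The list also holds Cyc1, cytochrome c1 (-0.11), a complex III subunit that the name rule missed and that is not counted under complex III above. Uqcc3, an assembly factor of complex III, read 323.3 withdrawn and 914.1 with tetracycline (-1.50), the largest difference of that list, whereas the complex III subunits had a median of -0.084. Coq3, an enzyme of ubiquinone synthesis, had the largest upward change of the list (1.21), but its tetracycline value of 265.1 was below the control floor. The 2 probe sets of Phb, prohibitin, read -0.96 and 0.046 on the MB type. Mitochondrial ribosomal proteins, which make the subunits encoded in mitochondrial DNA, were lower in 21 of 30 on the first type (median -0.14) and 5 of 6 on the MB type (median -0.28). Mrpl54 had the largest change of these (-1.34, its withdrawn value below the control floor), with a second probe set at -0.38. Mrps18b was the most upward on the first type (0.36), with a second probe set at -0.11, and Mrps11 (-0.71) and Mrps31 (0.22) were the extremes of the MB type.

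The shift was not shown to be particular to the respiratory chain. Ribosomal protein genes, another set of abundant housekeeping transcripts, were lower in 28 of 36 measured probe sets on the first type (median -0.20) and 14 of 17 on the MB type (median -0.12). Glycolytic enzymes were lower in 6 of 7 on the first type (median -0.27) and 10 of 13 on the MB type (median -0.19). Fibroblast markers, which mark the cells themselves, were lower in 3 of 5 on the first type (median -0.36) and 9 of 12 on the MB type (median -0.27), and their medians were -0.22 and -0.23 with the level trend removed. Their summed intensity was 49160.9 withdrawn and 60744.4 with tetracycline on the first type and 155639 and 191129 on the MB type. The medians of these lists were thus at or below those of the respiratory chain except for ribosomal proteins on the MB type, no difference between them was tested, and the part of the markers in the result was not tested. With the level trend removed, the ribosomal protein median was -0.047 for the first type and 0.020 for the MB type, and that of the glycolytic enzymes -0.17 and -0.083, beside -0.19 and -0.082 for the respiratory chain and ATP synthase.

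**Figure D5:**
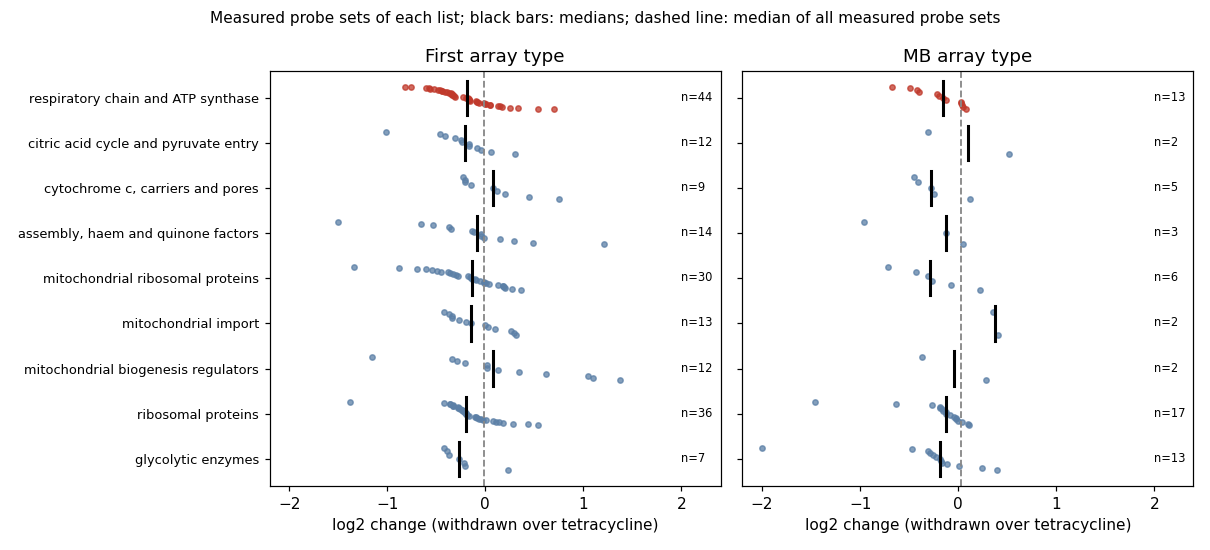
Log2 change of the measured probe sets (points) of the respiratory chain and ATP synthase (red) and of 8 other lists (blue) on the 2 array types, with medians (black bars) and the median of all measured probe sets (dashed line). On the first type the medians of the respiratory chain (-0.19), the citric acid cycle (-0.20), ribosomal proteins (-0.20) and glycolytic enzymes (-0.27) lie left of the dashed line.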

How the data were processed

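Gene expression was measured on 4 arrays, 1 per condition and array type. The files hold deposited intensity values on a linear scale, 1 per probe set and array, and the authors' software and scaling are not given here. The 2% trimmed means of the non-control probe sets lay between 997 and 1000.4, and the values were used without further scaling. The 61 control probe sets of each type stayed out of all counts. Gene symbols came from the platform annotation, in which 5541 probe sets of the first type and 2001 of the MB type have 1 symbol, 197 and 27 have several and 785 and 4506 have none. All member symbols matched RefSeq, GRCm38.p6.

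The change is log2 of withdrawn over tetracycline, with no pseudocount, and with 1 array per condition no test was made. Members, gene lists, motifs and the floor were chosen with earlier results of these data known. By the naming rule, any member could be named, with values per complex for the brightest probe set, the largest changes, genes whose probe sets disagree, tissue isoforms and the c subunit. Values of other members go beyond that rule. Of each mitochondrial list the largest change in each direction was to be named, and Cs, the further probe sets of Slc25a5, Slc25a20, Suclg2, Mdh2, Mrps18b, Mrpl54 and Timm13, Tfam on the first type, Yy1, Ppard and Gabpb1 were added after their values were seen. Alternatives were quantile and median-ratio scaling, removal of the level trend by loess (span 0.4), no floor, a lower floor (64.9 and 40.0), a higher floor (259 and 160), the control floor, genes or the brightest probe set per gene, plain probe sets, subunits alone and 1.5-fold and 3-fold limits. Leaving out _f_at probe sets was added after seeing the data. Short motif cores took the place of longer ones after the values were seen. The code for the summaries was run on simulated arrays with known changes. The settings and outcome of that run are not given here. It is no check of shifts as small as the members' medians, and no result above rests on it. Python 3.11.15, numpy 2.4.6, pandas 2.3.3, statsmodels 0.14.6 and matplotlib 3.10.9 were used.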

Additional observations from a re-analysis of the deposited data

How the results depend on the processing

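Medians were compared with a tolerance of 0.1 on the log2 scale, shares lower with an exact 95% binomial interval that covers counting only, and counts with a factor of 1.5. Of 222 comparisons, 199 stayed within these limits, 16 moved beyond them and 7 changed sign. Groups of 1 or 2 bright probe sets could not change under most of the floor and gene choices, so these totals are no measure of robustness. The median of the measured members stayed below 0 on both types under every alternative run except plain probe sets, where it was 0.048 on the first type with 42.9% of 7 probe sets lower. No member with a plain probe set was measured on the MB type. With plain probe sets alone the first type's complex I accessory median was 0.25 (3 probe sets), that of complex III -0.198 (2) and that of complex V -0.0026 (2).

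Quantile scaling gave -0.024 for the only complex I core probe set of the MB type, -0.035 for complex IV on the MB type and 0.0063 for complex II. The median ratio gave 0.0054 for complex II. At the control floor and the higher floor complex II was -0.34 (1 probe set), and complex V on the MB type -0.27 at the control floor. The lower floor gave -0.042 for the assembly factors. Without _f_at probe sets complex II was 0.33, complex IV on the first type -0.17 and complex V on the MB type 0.025, where 1, 3 and 1 probe sets remained. At 1.5-fold 3 members of the first type were lower and 1 higher, and 1 was lower on the MB type. Without a floor 4 members were 2-fold lower and 1 higher on the first type and 1 was higher on the MB type, and at the lower floor 1 was higher on the first type. Single members changed sign in 5 of 57 cases with quantile scaling, 4 with loess and 2 with the median ratio, none of them with a main change beyond 0.092 in size. Quantile scaling brought the bright Atp5b probe set to -0.029, Cox6c to -0.023 and Cox7c on the MB type to -0.077, and Cox4i1 to 0.18. No paired analysis was possible because each condition has 1 array of each type.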

Other observations

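Regulators of mitochondrial gene expression went both ways. On the first type 4 of 12 measured probe sets were lower, with a median of 0.074. Tfam, the factor that packages and transcribes mitochondrial DNA, read 836.3 withdrawn and 545.4 with tetracycline on the first type (0.62) and 492.4 and 404.9 on the MB type (0.28), higher on both types. Yy1, a zinc finger factor with sites in many respiratory chain promoters, read 1127.1 withdrawn and 543.8 with tetracycline, just past 2-fold. A second Yy1 probe set read 555.7 withdrawn and 75.6 with tetracycline, the last below the floor. Ppard, a nuclear receptor, read 618.2 withdrawn and 289.3 with tetracycline (1.10). Esrra, the receptor ERR alpha, had the largest change (1.37), but its tetracycline value of 256.9 lay below the control floor. Gabpa, the DNA-binding subunit of GABP, was lower on 2 probe sets (-1.15 and -0.29) with both withdrawn values below the control floor, and its partner Gabpb1 read 701.4 withdrawn and 695.1 with tetracycline. Ppara, the only lower one on the MB type (-0.37), was below the control floor.

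The mitochondrial import list was drawn by symbols that begin with Timm or Tomm, and holds Tomm34, which is no translocase subunit, beside the translocase genes. It was lower in 8 of 13 measured probe sets on the first type (median -0.15) and in none of 2 on the MB type (median 0.38). Timm44, which anchors the import motor to the inner membrane, was higher on both types (0.32 and 0.41), and Tomm34 on the MB type (0.35). Timm13, a small chaperone of the space between the membranes, was lower on 2 probe sets (-0.34 and -0.42) and higher on another (0.30).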
